A study of Mus musculus with 8 samples.

Results

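The difference between C2C12 cells and primary myoblasts (pMb) in the response to Septin9 depletion was measured gene by gene in all 8 samples. For each replicate pair, which is the Septin9-depleted sample (SEPT9KD) and the control (scr) with the same replicate number, a log2 ratio SEPT9KD over scr was formed. The pMb ratio minus the C2C12 ratio, called the interaction difference here, is positive when the pMb ratio is the higher one. All 40012 genes listed without a copy suffix, of 42391 gene entries in the count matrix, were members of this comparison, and 16843 of them had enough reads to be tested. Genes with opposite directions in the cell types, or with an effect in only one of them, were then described.

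C2C12 cells are an established mouse myoblast line that fuses into myotubes in low serum, and these samples were taken at 12 h of differentiation, 60 h after transfection with 50 nM siRNA, which stood at 100 nM during the first 5 h. Primary myoblasts were grown from hindlimb muscle of 5-week-old mice and lysed while proliferating, 48 h after transfection. They were transfected in full proliferation medium, and C2C12 cells in reduced-serum medium for the first 5 h. The methods give no separate siRNA dose for the primary myoblasts. Control cells of both types received a non-targeting siRNA and depleted cells a single Septin9 siRNA, with 2 replicates per condition from independent experiments. The methods give no genetic alteration for either cell type. Line against primary culture, differentiation against proliferation medium, the transfection medium and the time after transfection all changed together. Their parts in any difference between the cell types therefore cannot be told apart. C2C12 is 1 line, and how many mice gave the primary cells is not given in the sources used here.

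Septins are GTP-binding proteins that assemble into filaments and act as scaffolds at the membrane and along actin and microtubules. Septin9 interacts with both actin filaments and microtubules. Myoblasts leave the cell cycle, switch on contractile genes and fuse when they differentiate, and actin-dependent transcription through SRF (serum response factor) is among the programs active in these cells.

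Between 19766202 and 25950883 reads were counted on these genes per sample. Of 8 myogenic markers, among them Myod1, Pax7 and Des, 8 averaged over 1 CPM (counts per 1000000 counted reads, scaled with TMM) in C2C12 cells and 8 in pMb. Of 6 endothelial markers, 0 reached that level in C2C12 cells and 3 in pMb, where their summed level ranged from 5.53 to 8.19 CPM. Fibroblast markers summed to 135.9 to 178 CPM in C2C12 cells, and in pMb to 13.7 and 12.0 CPM in the control and depleted samples of pair 1 but 91.7 and 88.0 CPM in those of pair 2. Most of the sum in C2C12 cells came from Cd34 (73.6 to 96.6 CPM) and Ly6a (35.9 to 66.2 CPM). There Dcn had at most 2.87 CPM, and Dpt, Lum and Tcf21 had under 1 CPM. The fibroblast sum differed between the replicates of pMb and hardly between the siRNAs, and its part in the results was not tested. Macrophage markers summed to no more than 4.21 CPM in any sample. Pericyte markers summed to 427.7 to 616 CPM in C2C12 cells and 175.1 to 307 CPM in pMb. Among them in pMb, Pdgfrb had 3.46 and 2.58 CPM in pair 1 and 45.2 and 68.1 CPM in pair 2. Abcc9 went the other way, with 46.1 and 52.6 CPM in pair 1 and 9.27 and 34.7 CPM in pair 2. Of the summed Schwann markers, 99.5% was Ncam1.

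Septin9, the target of the siRNA (chromosome 11, 117199661 to 117362325, GRCm38.p6), was depleted in all 4 pairs. It had 432 and 459 CPM in the control C2C12 samples and 155 and 195 CPM after the Septin9 siRNA. In pMb it had 393 and 495 CPM in scr and 217 and 167 CPM in depleted samples. Pairs 1 and 2 of C2C12 cells had ratios of -1.48 and -1.23, those of pMb -0.85 and -1.57, so the 2 cell types overlapped. The interaction difference for Septin9 was 0.14 (standard error 0.209), with an adjusted p of 0.912 in edgeR's quasi-likelihood test, and the 2 pMb pairs were depleted to unequal extents.

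Few single genes passed the test of a difference between the cell types at this number of replicates. The interaction term of edgeR's quasi-likelihood test passed an adjusted p of 0.05 for 3 of 16843 genes (0.0178% called), namely Ucp2 and Ogn with a higher ratio in pMb (0.0119%) and Lgr6 with a lower ratio (0.00594%). These 3 calls were lost with RLE size factors (adjusted p = 0.0805 in edgeR), library size alone (0.118), at least 10 counts in every sample (0.0521), copies kept (0.056), limma voom (0.0824 to 0.201) and without the replicate block (1). At an unadjusted p under 0.05 there were 1393 genes (8.27%), of which 793 (4.71%) were higher and 600 (3.56%) lower in pMb. DESeq2 with the same design called 22 of the 7047 genes to which it gave an adjusted p (0.312%), 16 higher (0.227%) and 6 lower (0.0851%), and 476 genes at an unadjusted p under 0.05 (2.83%). The fit had 2 residual degrees of freedom, and for a single gene the exact permutation test of 2 pairs against 2 pairs cannot give a p below 0.333. The median interaction difference over all genes tested was -0.01.

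**Figure D1:**
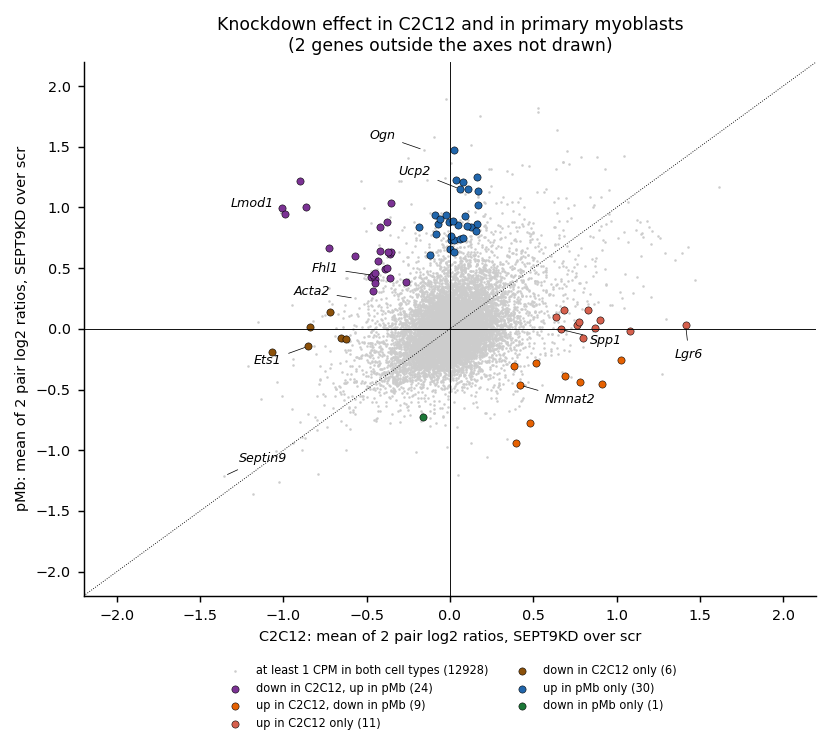
Each point is 1 gene, with the mean of the 2 C2C12 pair ratios (log2 SEPT9KD over scr) on the x axis and the mean of the 2 pMb pair ratios on the y axis; grey points are genes with a mean of at least 1 CPM in both cell types (12926 drawn and 2 outside the axes) and coloured points the genes of the described patterns. Septin9 lies near the dotted line of equal ratios at the lower left, Lmod1 and Fhl1 lie at the upper left, Ucp2 and Ogn near the vertical line, and Lgr6 at the far right.

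Ucp2, a carrier of the mitochondrial inner membrane, rose after Septin9 depletion in pMb and had nearly the same level in both conditions of each C2C12 pair. It had 120 and 174 CPM in scr and 129 and 176 CPM in depleted C2C12 cells. In pMb it had 32.8 and 21.0 CPM in scr and 67.8 and 50.2 CPM in depleted cells, so that the depleted and control pMb samples did not overlap and all 4 stayed below the C2C12 samples. In C2C12 cells the pair ratios were 0.10 and 0.02, in pMb 1.04 and 1.26, and the interaction difference was 1.09 ± 0.124 (standard error), with an adjusted p of 0.0473 in edgeR and 1.72e-06 in DESeq2. Ucp2 lies on chromosome 7 from 100493337 to 100499629, and 305 bases of its exons are shared with Dnajb13 on the opposite strand. Whether reads were counted by strand is not given in the sources used here.

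Ogn encodes osteoglycin, a small leucine-rich proteoglycan of the extracellular matrix. Its level was 1375 and 4495 CPM in control C2C12 cells and 1421 and 3491 CPM after depletion, whereas pMb had 162 and 39.6 CPM in scr and 396 and 125 CPM after depletion. The controls of replicate 1 and replicate 2 differed 3-fold or more in each cell type, but the depleted sample was the higher one in both pMb pairs. The pair ratios were 0.05 and -0.36 in C2C12 cells against 1.29 and 1.66 in pMb, with an interaction difference of 1.63 ± 0.194 and an adjusted p of 0.0473 in edgeR and 3.69e-16 in DESeq2. Its neighbour Aspn (asporin, another proteoglycan of this family) had pair ratios of -0.39 and -0.88 in C2C12 cells and 1.36 and 1.84 in pMb. Aspn had between 0.312 and 1.64 CPM in the pMb samples, on 8 to 35 reads, so its ratios there rest on few counts. Its interaction difference was 2.42 ± 0.378, with an adjusted p of 0.106 in edgeR.

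Lgr6, a receptor for R-spondins that strengthens Wnt signalling, showed the reverse pattern. C2C12 cells had 9.56 and 2.02 CPM in scr and 27.2 and 5.20 CPM after depletion. In pMb its level was 197 and 42.5 CPM in scr and 176 and 49.5 CPM after depletion, which is above every C2C12 sample. C2C12 pairs had ratios of 1.5 and 1.33, pMb pairs -0.16 and 0.22. The interaction difference was -1.45 ± 0.174, with an adjusted p of 0.0473 in edgeR and 6.87e-06 in DESeq2. In C2C12 cells alone Lgr6 rose by 1.46 (log2, adjusted p = 4.91e-08 in edgeR), and in pMb alone the log2 fold change was 0.03 (adjusted p = 0.951).

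**Figure D2:**
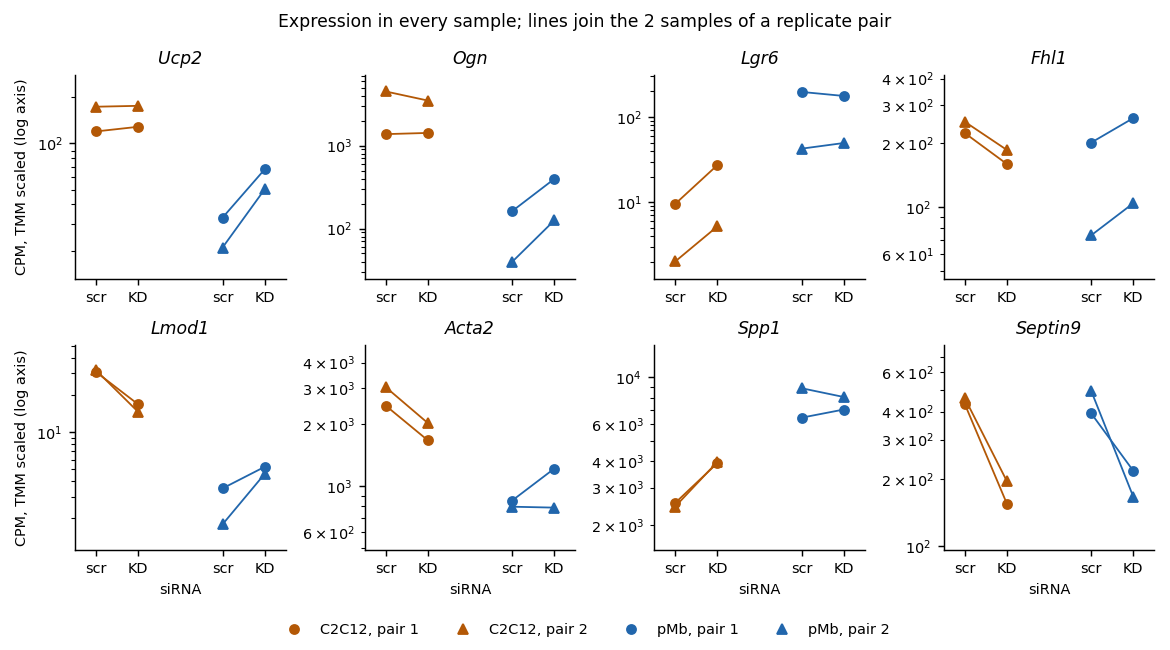
CPM (log axis) in every sample for 8 genes; a line joins the control (scr) and the Septin9-depleted (KD) sample of a replicate pair, with circles for pair 1 and triangles for pair 2, C2C12 cells in orange and pMb in blue. Ucp2 and Ogn rise along both blue lines and Lgr6 and Spp1 along both orange lines, Fhl1 and Lmod1 are lower after depletion in C2C12 cells and higher in pMb, and Septin9 falls along all 4 lines.

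The other genes that DESeq2 called with a higher ratio in pMb included proteins of the contractile and actin machinery. Tpm2, a tropomyosin of muscle thin filaments, had 359 and 407 CPM in scr and 354 and 389 CPM in depleted C2C12 cells, and went from 1606 and 685 CPM to 2315 and 1212 CPM in pMb. Its pair ratios of -0.02 and -0.06 in C2C12 cells and 0.53 and 0.82 in pMb gave an adjusted p of 0.000787 in DESeq2 and 0.259 in edgeR. Fhod3, a formin that assembles sarcomeric actin, had ratios of 0.29 and 0.05 against 0.84 and 1.33. Acta2, the smooth muscle actin, was at 2471 and 3040 CPM in scr and 1674 and 2032 CPM in depleted C2C12 cells, so the 2 depleted samples were the lower ones. In pMb, Acta2 went from 852 to 1219 CPM in pair 1 and from 795 to 787 CPM in pair 2, so that only 1 pMb pair was higher after depletion. Acta2 had an adjusted p of 0.00107 in DESeq2 and 0.266 in edgeR, and Synpo2l, an actin-binding protein of the Z-disc, was called in the other direction with ratios of 1.53 and 1.42 in C2C12 cells and 0.14 and 0.66 in pMb.

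Several genes of mitochondria and hypoxia were also among the DESeq2 calls with a higher ratio in pMb. Bnip3, a mitophagy receptor induced by hypoxia, had 44.3 and 58.0 CPM in scr and 41.9 and 44.8 CPM in depleted C2C12 cells, and in pMb 59.0 and 32.8 CPM in scr and 88.3 and 52.9 CPM in depleted cells. Its ratios came to -0.08 and -0.37 in C2C12 cells, 0.58 and 0.69 in pMb, with an adjusted p of 0.0156 in DESeq2 and 0.106 in edgeR. Hif1an, an asparagine hydroxylase that restrains hypoxia-inducible factors, had ratios of 0.14 and -0.09 against 0.69 and 0.78. Acat1, a mitochondrial acetyl-CoA acetyltransferase, had ratios of -0.14 and -0.22 against 0.50 and 0.36. Their adjusted p-values were 0.0277 and 0.0473 in DESeq2 and 0.167 and 0.216 in edgeR. These genes were grouped after their values were seen.

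The secreted and surface proteins called by DESeq2 went in both directions. Tgfb3, a transforming growth factor, had ratios of 0.17 and -0.25 in C2C12 cells and 0.52 and 1.06 in pMb, and Sema3d, a secreted semaphorin, had 0.14 and 0.06 against 0.72 and 0.97. Emp2, a tetraspan membrane protein, had -0.08 and -0.24 against 0.48 and 0.52. Spp1, which encodes osteopontin, had 2540.3 and 2441 CPM in scr and 3925 and 3977 CPM in depleted C2C12 cells, while pMb had 6446 and 8891 CPM in scr and 7046 and 8079 CPM in depleted cells. The C2C12 samples of Spp1 separated by siRNA and those of pMb did not, with ratios of 0.63 and 0.70 against 0.13 and -0.14 and an adjusted p of 0.00107 in DESeq2 and 0.372 in edgeR. Ermp1, a peptidase of the endoplasmic reticulum, was also lower in pMb by the interaction, with ratios of 0.97 and 1.07 in C2C12 cells against 0.26 and 0.35, which is the same direction in all 4 pairs.

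The remaining calls of DESeq2 were Fhl1 and Apbb1, described with the opposite directions, Capn6 and Serpinb1a, described with the effects in pMb alone, and Mir100hg, Dynap and Gm38481. Mir100hg, a long non-coding RNA that hosts microRNAs, had 40.5 and 51.3 CPM in scr and 47.3 and 62.8 CPM in depleted C2C12 cells, and 67.5 and 100.4 CPM in scr and 47.9 and 72.6 CPM in depleted pMb. Its ratios of 0.22 and 0.29 in C2C12 cells and -0.49 and -0.47 in pMb lay on opposite sides of 0 in all 4 pairs, with an interaction difference of -0.74 ± 0.114 and an adjusted p of 0.0356 in DESeq2 and 0.106 in edgeR. Dynap had ratios of 0.32 and 0.27 against -0.22 and -0.70. The counts of Gm38481, a predicted gene on chromosome 2, were between 65.9% and 70.2% of those of Idi1, a gene of isoprenoid synthesis on chromosome 13, in all 8 samples, so reads of the 2 genes may be shared and its call is uncertain.

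Opposite directions were counted among the 12928 genes with a mean of at least 1 CPM in each cell type. A gene was included when both C2C12 ratios were at least 0.25 (log2) in one direction, both pMb ratios at least 0.25 in the other, and the unadjusted interaction p was under 0.05. This held for 33 genes (0.255%), 24 of them down in C2C12 cells and up in pMb (0.186%) and 9 up in C2C12 cells and down in pMb (0.0696%). These ratios chose the genes, so the values that follow are a description with no test. By sign alone, 692 genes (5.35%) had both C2C12 ratios below 0 and both pMb ratios above 0, and 892 (6.90%) had the reverse. Just inside the limit were Gm38639, Ptpn6 and Gdf15, whose smallest ratio was 0.252, 0.254 and 0.254 in size, and just outside it were Pcyt1b, Plcl1 and Ccdc163 at 0.248, 0.246 and 0.244.

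Fhl1 and Lmod1 had the smallest interaction p among the 24 genes down in C2C12 cells and up in pMb, and the Z-disc gene Ldb3 is described with them, a grouping made after the values were seen. Fhl1, a LIM-domain protein abundant in muscle, had 222 and 251 CPM in scr and 159 and 185 CPM in depleted C2C12 cells. In pMb it had 200.4 and 73.7 CPM in scr and 261 and 104 CPM in depleted cells, so the replicates of pMb lay further apart than the siRNAs. The pair ratios of Fhl1, by which it was chosen, were -0.48 and -0.44 against 0.38 and 0.50. Its interaction difference was 0.90 ± 0.117 (adjusted p = 0.0578 in edgeR and 2.23e-06 in DESeq2). Lmod1, a leiomodin that nucleates actin filaments and is best known from smooth muscle, had 30.8 and 31.8 CPM in scr and 16.8 and 14.6 CPM in depleted C2C12 cells, against 3.51 and 1.79 CPM in scr and 5.24 and 4.60 CPM in depleted pMb. The conditions of Lmod1 did not overlap in either cell type, and its interaction difference was 1.92 ± 0.25 (adjusted p = 0.0578 in edgeR). Ldb3, a Z-disc protein that binds actinin, had ratios of -0.38 and -0.32 in C2C12 cells and 0.50 and 1.57 in pMb, where its control replicates had 292 and 90.9 CPM.

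SRF binds the CArG box, and the promoters of these genes were searched for it because Lmod1 and Acta2 belong to the smooth muscle and SRF list. The 250 bases before each transcription start listed by RefSeq for GRCm38.p6 were read on both strands. Only exact matches were sought, and Lmod1 and Acta2 held none. Of all 27025 genes with a listed promoter, 1.62% held a CArG box. The share was 12.9% in the skeletal muscle contraction list and 18.2% in the smooth muscle and SRF list. The box was thus not particular to this orientation. Of the 24 genes down in C2C12 cells and up in pMb, 20 had a listed promoter. Among these, 2 held a CArG box (10.0%), Fhl1 (not at every listed start) and Ldb3. Both sequences are shown because they are the 2 with a match, with the CArG box in capitals; in Fhl1 its first base lies 102 bases before the start at the X-chromosomal promoter chrX:56779433-56779682 (plus strand), and in Ldb3 35 bases before the start at chr14:34588682-34588931 (minus strand). The match is a description of letters in this window, and binding was not measured.
Fhl1: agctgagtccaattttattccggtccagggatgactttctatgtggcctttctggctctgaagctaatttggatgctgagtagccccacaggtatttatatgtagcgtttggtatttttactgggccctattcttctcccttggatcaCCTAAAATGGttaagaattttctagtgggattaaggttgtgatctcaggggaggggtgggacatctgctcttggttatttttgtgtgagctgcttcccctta
Ldb3: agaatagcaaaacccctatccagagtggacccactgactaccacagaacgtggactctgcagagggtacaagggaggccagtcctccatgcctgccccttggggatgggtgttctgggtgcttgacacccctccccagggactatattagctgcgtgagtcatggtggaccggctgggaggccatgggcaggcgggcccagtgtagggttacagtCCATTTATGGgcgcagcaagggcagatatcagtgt

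Other members of this orientation belonged to transport, matrix and metabolism. Dync1i1, an intermediate chain of cytoplasmic dynein, had 6.15 and 15.5 CPM in scr and 3.39 and 10.1 CPM in depleted C2C12 cells, and 13.4 CPM in both control samples and 17.9 and 25.4 CPM in depleted pMb. Its ratios were -0.84 and -0.61 against 0.41 and 0.92, with an interaction difference of 1.38 ± 0.217 (adjusted p = 0.106 in edgeR). Apbb1, an adaptor that binds the amyloid precursor protein, had -0.43 and -0.48 against 0.36 and 0.46 and an adjusted p of 0.101 in edgeR and 0.0373 in DESeq2. Adamts5, a protease that cleaves aggrecan, had -0.68 and -0.27 against 0.54 and 0.31, Phka2, a regulatory subunit of phosphorylase kinase, had -0.26 and -0.28 against 0.30 and 0.47, and Glt8d2, a glycosyltransferase, had -0.35 and -0.36 against 0.75 and 0.51. Over the 24 genes the interaction difference ranged from 0.65 to 1.99 with a median of 1.00, and the lowest adjusted p in edgeR was 0.0578.

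Not all members of this orientation were measured equally well. In 10 of the 24 genes the 2 control replicates of a cell type differed by more than the interaction difference, and DESeq2 gave no adjusted p to 20 of them. Fam13c and Phyhipl share 1055 exonic bases on opposite strands and both belong to the 24, with ratios of -0.29 and -0.43 against 0.36 and 0.87 for Fam13c and -0.50 and -0.37 against 0.35 and 0.77 for Phyhipl. The paralogs 9930111J21Rik1 and 9930111J21Rik2 also both belong to it, and in the control of pMb replicate 1 each had 0.0450 CPM. Dkk2, a secreted Wnt antagonist, had 0.0450 and 0.0936 CPM in pair 1 of pMb and 16.7 and 24.7 CPM in pair 2, so its value there rests on 1 pair. The members not named with ratios here, among them the stress-induced cytokine Gdf15, the phosphatase gene Ptpn6 and the focal adhesion gene Lims2, had at most 41.6 CPM in any sample.

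The reverse orientation, up in C2C12 cells and down in pMb, was rarer and its genes were low. Nmnat2, an enzyme of NAD synthesis, had 18.7 and 14.6 CPM in scr and 24.0 and 20.5 CPM in depleted C2C12 cells, and 15.9 and 32.7 CPM in scr and 13.2 and 20.6 CPM in depleted pMb. Its depleted samples were the higher ones in both C2C12 pairs and the lower ones in both pMb pairs, with ratios of 0.35 and 0.48 against -0.26 and -0.66 and an interaction difference of -0.90 ± 0.17 (adjusted p = 0.215 in edgeR). Msi1, an RNA-binding protein of progenitor cells, had ratios of 0.49 and 0.89 against -0.46 and -0.32, on 1.20 to 2.60 CPM in C2C12 cells. Ptpn22, a tyrosine phosphatase, had 0.47 and 0.50 against -0.72 and -0.84, on 0.375 to 3.19 CPM in pMb. Bdkrb1, a bradykinin receptor, had ratios of 1.63 and 0.43 against -0.26 and -0.25, so its C2C12 pairs lay far apart.

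The other members up in C2C12 cells and down in pMb were Gm6644, LOC115487269, Gm38639, Cdh10 and A630089N07Rik. Gm6644, a transcribed pseudogene, had ratios of 0.34 and 0.43 against -0.32 and -0.29, and Cdh10, a cadherin, had 0.46 and 0.33 against -0.59 and -1.30. LOC115487269, a small nucleolar RNA, had 0.56 and 1.00 against -0.39 and -0.48, and Gm38639 had 0.89 and 0.93 against -0.66 and -0.25. In RefSeq, LOC115487269 lies within the span of Snhg5, Gm38639 within that of Zfp934 and Gm6644 within that of Plcl1. Reads may thus be shared with these genes, which was not tested, and their own levels are uncertain. Over all 9 genes the interaction difference ranged from -1.49 to -0.69, the lowest adjusted p in edgeR was 0.215, and DESeq2 gave an adjusted p to none of them.

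**Figure D3:**
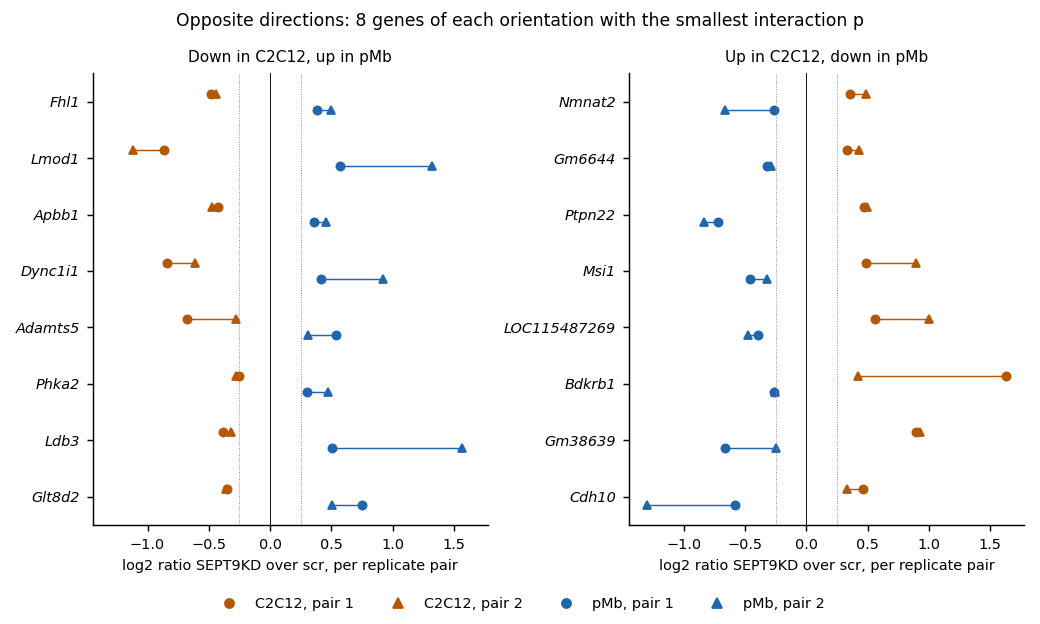
Log2 ratios SEPT9KD over scr of each replicate pair (x axis) for the 8 genes of each orientation with the smallest interaction p; circles are pair 1, triangles pair 2, orange C2C12 cells, blue pMb, and dotted lines mark 0.25 on either side of 0. In the left panel all orange points lie below -0.25 and all blue points above 0.25, with Lmod1 furthest apart, and in the right panel the sides are exchanged.

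Genes with an effect in C2C12 cells alone had both C2C12 ratios at or beyond a 1.5-fold change in one direction, both pMb ratios within 0.25 of 0 and an unadjusted interaction p under 0.05. These limits gave 17 genes (0.131%), 11 up (0.0851%) and 6 down (0.0464%), and again the values are a description. Within 0.25 of 0 in both pMb pairs lay 51.8% of the 12928 genes, and both C2C12 ratios passed the fold limit upwards in 0.665% and downwards in 0.441%. The 11 genes up in C2C12 cells were led by Lgr6, described above, and held several receptors and signalling genes. In 7 of the 11, Lgr6 among them, the control replicates of a cell type differed by more than the interaction difference. The adjusted p and fold change limits in C2C12 cells alone, the contrast that chose them, were passed by 7 of the 11. Rgs16, which switches off G-protein signals, had 2.64 and 4.35 CPM in scr and 4.67 and 7.59 CPM in depleted C2C12 cells, against 49.3 and 118 CPM in scr and 49.4 and 107 CPM in depleted pMb. Adora2b, an adenosine receptor, had ratios of 1.49 and 0.66 in C2C12 cells against 0.11 and -0.15, and S1pr1, a receptor for sphingosine-1-phosphate, had 0.65 and 0.73 against 0.17 and 0.15. Wnt7b, a Wnt ligand, had 0.82 and 0.73 against 0.06 and 0.06, and Kcnj12, an inwardly rectifying potassium channel, had 0.73 and 1.01 against 0.10 and -0.08. Of these 11 genes, 9 were more than 2-fold higher in control pMb than in control C2C12 cells, so for most of them the rise in C2C12 cells started from the lower level. Unequal control levels were also found in other patterns. Of the 30 genes up in pMb alone, 11 were more than 2-fold higher in control C2C12 cells and 6 in control pMb. Of the 24 genes down in C2C12 cells and up in pMb, these numbers were 9 and 3.

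The 6 genes down in C2C12 cells alone held a transcription factor and secreted signals. In 4 of them the control replicates of a cell type differed by more than the interaction difference, and 5 passed the limits in C2C12 cells alone. Ets1, a transcription factor, had 98.3 and 81.1 CPM in scr and 52.2 and 46.8 CPM in depleted C2C12 cells, and 46.3 and 67.0 CPM in scr and 39.7 and 64.0 CPM in depleted pMb. Its 2 conditions separated in C2C12 cells and overlapped in pMb, with ratios of -0.91 and -0.79 against -0.22 and -0.07 and an interaction difference of 0.71 ± 0.121 (adjusted p = 0.156 in edgeR and 0.0541 in DESeq2). Sfrp2, a secreted antagonist of Wnt, had 33.7 and 69.6 CPM in scr and 20.1 and 36.4 CPM in depleted C2C12 cells, whereas pMb had 13.6 and 2.53 CPM in scr and 14.1 and 2.50 CPM in depleted cells. Its ratios were -0.74 and -0.93 against 0.05 and -0.02. Cnr1, a cannabinoid receptor, had -0.63 and -0.80 against 0.08 and 0.20, Irgm1, an interferon-inducible GTPase, had -0.63 and -0.62 against -0.07 and -0.10, and B3gnt5, a glycosyltransferase of glycolipids, had -0.70 and -0.61 against -0.03 and -0.12. Tgfa, a ligand of the EGF receptor, had -1.31 and -0.83 against -0.13 and -0.25, on 0.529 to 2.69 CPM in C2C12 cells.

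Genes with an effect in pMb alone, by the same limits with the cell types exchanged, numbered 31 (0.240%), 30 up (0.232%) and 1 down (0.00774%). Within 0.25 of 0 in both C2C12 pairs lay 66.5% of the 12928 genes, and both pMb ratios passed the fold limit upwards in 1.28% and downwards in 0.302%. Capn6, a calpain-family protein without protease activity, had 121 and 166 CPM in scr and 135 and 155 CPM in depleted C2C12 cells, and 14.7 and 3.50 CPM in scr and 31.3 and 12.9 CPM in depleted pMb. Serpinb1a, an inhibitor of serine proteases, had 77.9 and 122 CPM in scr and 91.4 and 109 CPM in depleted C2C12 cells, and 8.36 and 9.15 CPM in scr and 16.5 and 25.8 CPM in depleted pMb. Both genes were lower in every pMb sample than in any C2C12 sample, and in pMb the depleted sample was the higher one of each pair. Their interaction differences were 1.36 ± 0.208 and 1.22 ± 0.19, with adjusted p of 0.106 for both in edgeR and 2.96e-05 and 0.000787 in DESeq2.

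Components of muscle membrane, calcium handling and metabolism were also among the 30 genes up in pMb alone, and were grouped after their values were seen. Stim1, the calcium sensor of the endoplasmic reticulum, had 40.8 and 30.8 CPM in scr and 62.5 and 58.1 CPM in depleted pMb, and between 22.0 and 23.7 CPM in all 4 C2C12 samples. Jph1, a junctophilin that ties the sarcoplasmic reticulum to the plasma membrane, had ratios of 0.63 and 1.14 in pMb against 0.05 and -0.01. Sgcd, a sarcoglycan of the dystrophin complex, had 0.60 and 0.66 against -0.12 and 0.17. Myl4, an atrial and embryonic myosin light chain, had 1141 and 403 CPM in scr and 1867 and 1012 CPM in depleted pMb, and between 9.37 and 12.2 CPM in C2C12 cells. Gatm, an enzyme of creatine synthesis, had 0.64 and 1.08 against 0.21 and 0.12, and Cpt1b, which carries fatty acids into mitochondria, had 0.67 and 1.04 against 0.10 and 0.00. Cdkn1c, an inhibitor of cyclin-dependent kinases, had 0.67 and 1.84 against 0.12 and 0.21, and Fzd5, a Wnt receptor, had 0.84 and 0.92 against -0.08 and 0.07.

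The interaction difference over the 30 genes ranged from 0.62 to 1.36 with a median of 0.84, and 25 of them passed the adjusted p and fold change limits in pMb alone, in the same contrast that chose them. In 14 of the 30 genes the control replicates of a cell type differed by more than the interaction difference. The single gene down in pMb alone was Tpmt, thiopurine methyltransferase, with 8.41 and 8.53 CPM in scr and 5.38 and 4.8 CPM in depleted pMb and ratios of -0.09 and -0.24 in C2C12 cells against -0.63 and -0.82.

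**Figure D4:**
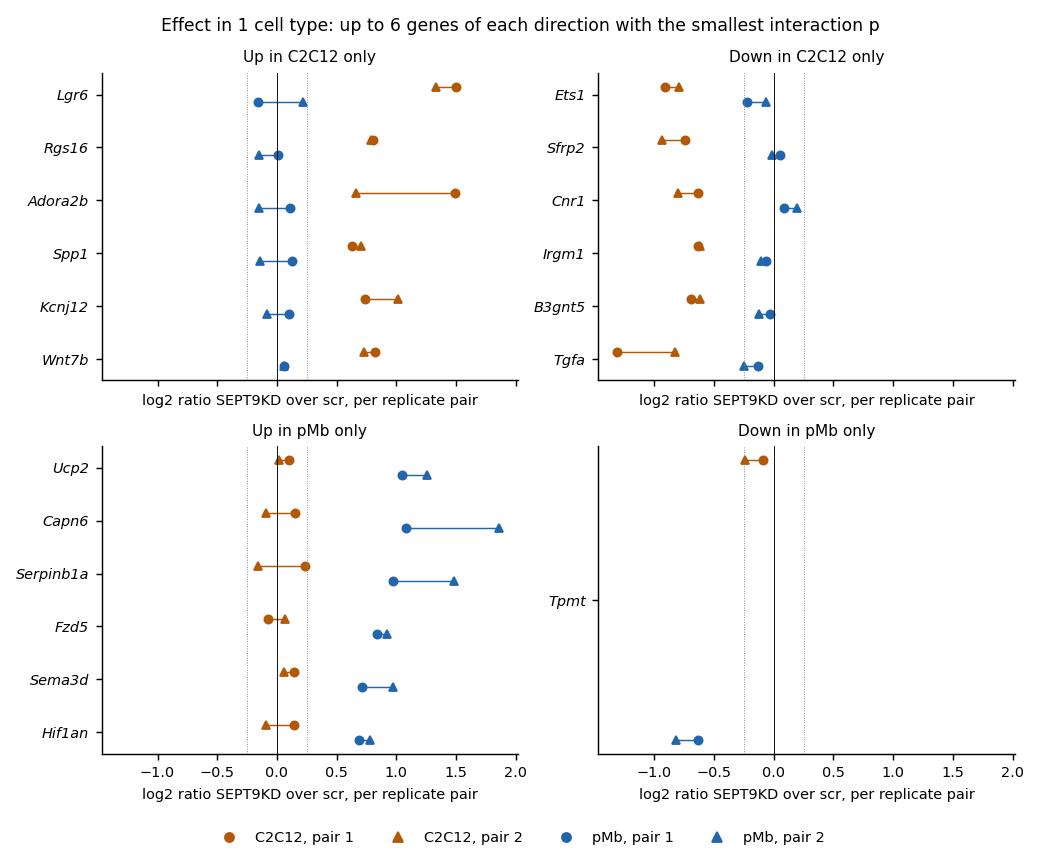
Log2 ratios SEPT9KD over scr of each replicate pair (x axis) for up to 6 genes with an effect in 1 cell type, ordered by interaction p; circles are pair 1, triangles pair 2, orange C2C12 cells, blue pMb, and dotted lines mark 0.25 on either side of 0. In the upper panels the blue points stay between the dotted lines and the orange points lie outside them, in the lower panels the reverse holds, and Tpmt is the only gene of the lower right panel.

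Most genes that passed the limits in one cell type and not in the other had the same sign in the other. In C2C12 cells alone, 148 genes rose (0.997%) and 106 fell (0.714%) at an adjusted p under 0.05 in edgeR and a fold change of at least 1.5, and in pMb 477 rose (2.96%) and 47 fell (0.291%). Fewer genes were tested in both cell types than in each alone, so the counts that follow do not add up to these numbers. Of the genes tested in both, 13656 were called in neither, 47 rose in both and 21 fell in both. A further 71 fell in C2C12 cells and were not called in pMb, and 23 fell in pMb and were not called in C2C12 cells. In opposite directions, 3 fell in C2C12 cells and rose in pMb (Aspn, Dync1i1 and Lmod1), and 0 did the reverse. Among 288 genes that rose in pMb and were not called in C2C12 cells, 225 (78.1%) had a positive fold change there, with a median of 0.19 (log2). Among 82 genes that rose in C2C12 cells and were not called in pMb, 68 (82.9%) had a positive fold change in pMb, with a median of 0.34. Of the 71 and 23 genes that fell in 1 cell type, 57 (80.3%) and 18 (78.3%) had a negative fold change in the other. The same share over all genes was not computed. By pair ratios, 12.5% of the 12928 genes of at least 1 CPM in both had all pairs above 0 and 14.4% all below 0. The cell types had opposite signs in 5.35% and 6.90%. The difference itself had an unadjusted p under 0.05 for 154 of those 288 genes and for 34 of those 82. Over all genes the share was 8.27%. The call in 1 cell type that chose these genes uses the same counts, and its part in these shares was not tested.

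Among 14 gene lists, written with earlier results of these data known, cholesterol synthesis stood furthest above the other genes by its counts. The list holds the enzymes of the mevalonate and sterol branches with their regulators, such as the retention factor gene Insig1. Of its 24 members, all 24 tested, 14 had an interaction p under 0.05 with the higher ratio in pMb (58.3%, beside 4.71% of all genes) and 0 with the lower ratio. In 20 members both pMb ratios lay above both C2C12 ratios, beside 20.1% of all genes. The median interaction difference was 0.31, beside -0.01 over all genes. C2C12 pairs had median ratios of -0.41 and -0.34, pMb pairs of 0.017 and -0.11, so the sign of the list was set by lower values in depleted C2C12 cells. No member passed an adjusted p of 0.05 for the interaction in edgeR or DESeq2. The median control of replicate 2 minus that of replicate 1 was -0.89 in C2C12 cells and -0.34 in pMb (log2) for this list. The part of this spread in the list's values was not tested.

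Pmvk, the phosphomevalonate kinase, had 63.5 and 34.9 CPM in scr and 45.3 and 25.6 CPM in depleted C2C12 cells, and 11.1 and 9.78 CPM in scr and 14.5 and 10.7 CPM in depleted pMb. Its interaction difference of 0.73 ± 0.146 was the highest of the list (adjusted p = 0.241 in edgeR). Idi1, the isopentenyl diphosphate isomerase, had 540 and 266 CPM in scr and 415 and 203 CPM in depleted C2C12 cells, and 57.1 and 38.5 CPM in scr and 74.3 and 39.8 CPM in depleted pMb. In both genes the depleted C2C12 sample was the lower one of each pair while the replicates of C2C12 cells lay further apart than the siRNAs. Cyp51, the lanosterol demethylase, had an interaction difference of 0.54, Fdps, the farnesyl diphosphate synthase, 0.50, and Hmgcs1, the first committed step, 0.39. Srebf2, the transcription factor of the pathway, had ratios of -0.03 and -0.01 in C2C12 cells and -0.04 and 0.10 in pMb, with an interaction difference of 0.05. Tm7sf2, a sterol reductase, was the only member with a negative difference, -0.23.

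The promoter of Hmgcs1 is shown because it was the only one among the 16 cholesterol genes with a listed promoter (6.25%, beside 1.22% of all listed promoters) that held the sterol element TCACNCCAC on either strand in the 250 bases before the start. The element is in capitals and begins 137 bases before the start, in chr13:119690101-119690350 of GRCm38.p6 (plus strand), by the RefSeq annotation. It is a match of letters only, and the other 15 promoters may hold variants of it.
Hmgcs1: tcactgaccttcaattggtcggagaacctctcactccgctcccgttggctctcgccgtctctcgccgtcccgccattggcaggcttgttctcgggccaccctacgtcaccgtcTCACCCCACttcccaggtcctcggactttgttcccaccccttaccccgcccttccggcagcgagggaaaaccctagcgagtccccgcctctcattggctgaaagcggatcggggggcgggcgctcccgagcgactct

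Genes of DNA replication and S phase lay on the other side. All 30 members were tested and all 30 had a negative interaction difference, 9 of them with an unadjusted p under 0.05 (30.0%, beside 3.56% of all genes). In 21 members both pMb ratios lay below both C2C12 ratios, beside 20.6% of all genes. The median difference was -0.25, from median pair ratios of -0.05 and 0.05 in C2C12 cells and -0.19 and -0.31 in pMb. Between the controls, replicate 2 minus replicate 1 had a median of -1.15 in C2C12 cells and 0.12 in pMb (log2). The part of this spread in the list's values was not tested. Mcm3, a subunit of the replicative helicase, had an interaction difference of -0.46, Cdt1, which loads that helicase, -0.46, and Cdc45, which activates it, -0.47. Cdc45 had 32.2 and 12.5 CPM in scr and 38.0 and 13.8 CPM in depleted C2C12 cells, and 27.0 and 29.3 CPM in scr and 23.8 and 22.9 CPM in depleted pMb. Its depleted samples were thus slightly higher in C2C12 cells and slightly lower in pMb, by less than the spread between the C2C12 replicates, and its adjusted p was 0.43 in edgeR. For 0 members was the adjusted p under 0.05 in edgeR or in DESeq2. By contrast, the 30 genes of mitosis had median ratios of -0.28 and -0.28 in C2C12 cells and -0.36 and -0.32 in pMb, a median interaction difference of -0.05, and 0 with an interaction p under 0.05 in either direction.

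**Figure D5:**
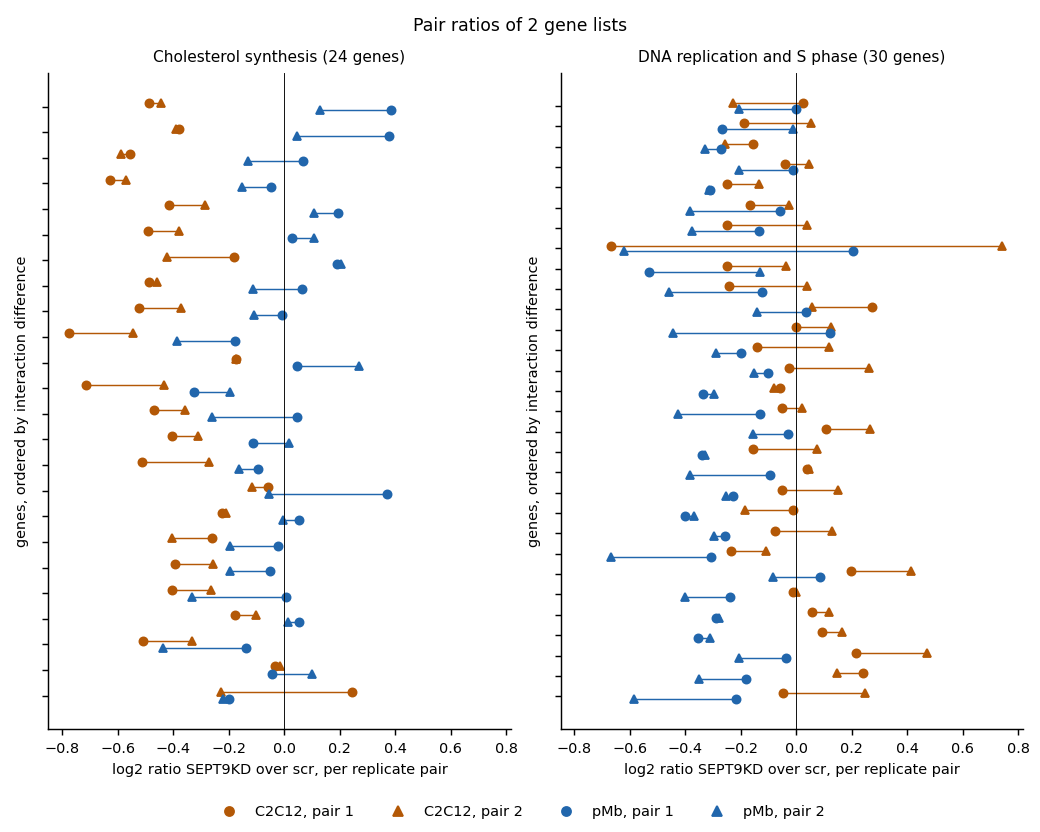
Log2 ratios SEPT9KD over scr of each replicate pair (x axis) for the 24 genes of cholesterol synthesis and the 30 genes of DNA replication and S phase, 1 gene per line, ordered by interaction difference from the highest at the top; circles are pair 1, triangles pair 2, orange C2C12 cells and blue pMb. On the left most orange points lie below 0 with the blue points to their right, and on the right most blue points lie to the left of the orange ones, which are spread around 0.

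Lists of the contractile apparatus and the matrix held smaller shares of genes with an unadjusted interaction p under 0.05 than the cholesterol list, and differences between lists were not tested. Among 38 genes of skeletal muscle contraction, 11 rose in C2C12 cells (beside 0.997% of all genes) and 29 in pMb (beside 2.96%), and the median interaction difference was 0.16, with 3 genes higher in pMb at an unadjusted p under 0.05 (7.89%, beside 4.71% of all genes) and 0 lower. Their pair ratios had medians of 0.85 and 0.51 in C2C12 cells and 0.47 and 1.18 in pMb, so the 2 cell types overlapped. The 3 genes were Ldb3, Myl4 and Tnnt2, a cardiac and embryonic troponin T with a difference of 0.55. At the other end Myh7, the slow myosin heavy chain, had ratios of 1.04 and 1.66 in C2C12 cells, where it was at 0.433 to 3.26 CPM, against 0.04 and 1.10, and Ryr1, the calcium release channel, had 0.75 and 0.76 against -0.26 and 1.13. In this list the median control of replicate 2 minus that of replicate 1 was 1.29 in C2C12 cells and -1.62 in pMb (log2), and the part of this spread in the list's values was not tested.

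Among 28 tested genes of the smooth muscle and SRF list, 5 were higher in pMb at an unadjusted p under 0.05 (17.9%), namely Lmod1, Acta2, Tpm2, Synpo2 and Smtn, and 0 were lower. The median was 0.15, and the most negative members were Tagln2, a transgelin, with -0.21 and the cytoplasmic actin Actg1 with -0.20. The 13 tested small leucine-rich proteoglycans had a median of 0.49, with 3 higher in pMb (23.1%), Ogn, Aspn and Prelp, and 0 lower. With at least 10 counts required in every sample the median was 0.018. Prelp had 0 reads in 3 of the 4 pMb samples and 0.0936 CPM in the other, so no difference is given for it. Dcn, decorin, had 0.328 and 16.8 CPM in the 2 depleted pMb samples. The fibroblast marker sum, which includes Dcn itself, differed between these replicates in the same way. Over the 18 collagens the median was 0.0072, with 3 higher (16.7%) and 2 lower (11.1%). Col6a2, a chain of microfibrillar collagen, had ratios of -0.08 and -0.12 against 0.15 and 0.77, and Col4a1 and Col4a2, the basement membrane chains, had differences of -0.27 and -0.33.

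Secreted cytokines and growth factors held the second largest share of genes with a higher ratio in pMb. Of 30 members tested, 11 had an interaction p under 0.05 in that direction (36.7%, beside 4.71%) and 1, Spp1, in the other (3.33%), while the median difference was only 0.12. Igf1, a growth factor that promotes muscle growth, had 11.8 and 44.0 CPM in scr and 12.0 and 35.8 CPM in depleted C2C12 cells, and 7.46 and 1.67 CPM in scr and 14.3 and 4.95 CPM in depleted pMb. The depleted sample was the higher one in both pMb pairs and the C2C12 pairs stayed close to 0 or below it, with an interaction difference of 1.31 ± 0.221 (adjusted p = 0.152 in edgeR). The chemokine genes Ccl2, Ccl7 and Cxcl1 had differences of 1.14, 0.84 and 1.32, but in pair 1 of pMb Ccl2 had only 0.405 and 0.187 CPM, Ccl7 0.360 and 0.281 CPM and Cxcl1 0.0899 and 0.0936 CPM. Their differences thus rest on pair 2 in pMb, and Ccl2 had ratios of -0.84 and 0.24 there against -1.03 and -0.85 in C2C12 cells. Fst, the activin and myostatin antagonist follistatin, had 0.83, Fgf7 had 0.57, Hgf, the ligand of Met, had 0.55 and Angpt1 had 0.50. Lif, a cytokine of the interleukin-6 family, had overlapping ratios of 0.66 and -0.39 against -0.90 and -0.32.

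The remaining lists had medians near that of all genes. For matrix proteases and inhibitors the median was 0.03, and 4 of 23 tested genes were higher in pMb (17.4%) and 3 lower (13.0%), and examples were Adamts1 at 0.69 and Mmp15 at -0.51. For interferon-stimulated genes it was 0.04, with 0 of 27 higher and 2 lower (7.41%), and Tap1, the peptide transporter of antigen presentation, had ratios of 0.70 and 0.18 against -0.59 and -0.55. For immediate early and stress genes it was -0.01, with 3 of 28 higher (10.7%) and 2 lower (7.14%), among them Jund at 0.72 and Myc at -0.33. For Notch pathway genes it was 0.05, with 1 of 20 higher (5.00%) and 3 lower (15.0%). Notch3, a Notch receptor, had ratios of 0.22 and 0.05 in C2C12 cells against -0.52 and -0.21, and Dll1, a Notch ligand, had a difference of -0.42. In the dynein, dynactin and kinesin list Dync1i1 was the only 1 of 22 genes with an interaction p under 0.05 (4.55%), and the list's median was 0.08.

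The septins and their Borg partners (CDC42 effector proteins) held a share of differing genes near that of all genes. Of 16 tested, 1 had an interaction p under 0.05 (6.25%), Cdc42ep3 with ratios of -0.01 and -0.06 in C2C12 cells and 0.43 and 0.14 in pMb, and the median was 0.04. Septin6, another filament-forming septin, had ratios of 0.40 and 0.25 in C2C12 cells against -0.01 and 0.11, with an interaction difference of -0.27 ± 0.132 (adjusted p = 0.639 in edgeR). Septin1 had 5.00 and 12.2 CPM in scr and 8.90 and 16.9 CPM in depleted C2C12 cells, and 2072 and 549 CPM in scr and 3481 and 1463 CPM in depleted pMb. Its gene overlaps Mylpf, a fast myosin light chain gene, by 1580 bases in RefSeq, and it had between 100% and 144% of the reads of Mylpf in the 8 samples, so reads of the 2 genes may be shared and its level is uncertain.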

How the data were processed

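Per the labels and methods, the authors aligned the reads with STAR 2.7.2 (build GRCm38.p6) and counted with featureCounts 2.0.1, and the deposited table holds 8 columns of raw counts per gene, not normalized. Samples were grouped by their labels and no column was left unassigned. The normalized tables deposited for each cell type, batch-corrected by the authors, were not used. Left out were 16 broken lines, on which 5 genes are split, and 2379 entries named as a further copy of a listed gene. Ptpn22, Irgm1, Gatm, Cdc45 and 9930111J21Rik2, described above, are among the genes with such a copy. Reads of the copies are not in the values given for them. Members and gene lists were chosen with earlier results of these data known.

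The counts were analysed in R 4.3.3 with edgeR 4.0.16: TMM, filterByExpr by the 4 groups, and a quasi-likelihood fit of 8 samples with 6 coefficients (replicate within cell type as a block, knockdown in C2C12 cells, and the difference pMb minus C2C12, which was tested). P-values were adjusted by Benjamini-Hochberg, and a standard error is the absolute log2 difference divided by the root of F. Each cell type was also fitted alone (14845 and 16139 genes), with the study's limits. Pair ratios are log2 TMM CPM with a prior count of 2. The block follows the methods, which state independent experiments and model their batch effect, and pairs share a replicate number in the labels. Deviations of samples with the same number correlated across genes with 0.552 in C2C12 cells and 0.792 in pMb, where genes are not independent replicates. The median absolute difference between the ratios of pair 1 and pair 2, over genes of at least 1 CPM, was 0.13 in C2C12 cells and 0.19 in pMb (log2).

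Named genes are Septin9, all calls of the interaction by edgeR or DESeq2 1.42.0, the 8 opposite-direction genes of each orientation and the 6 genes of each direction in 1 cell type alone with the smallest interaction p, Acta2, Aspn, Lmod1 and Dync1i1, and for each list the members with the highest and lowest differences among those of at least 1 CPM in each cell type. Other genes were chosen after their values were seen. Alternatives were RLE size factors, library size alone, no filter, a minimum of 10 counts per sample, a fit without the replicate block, copies kept, DESeq2, limma voom (limma 3.58.1), robust edgeR, a prior count of 0.5, a limit of 0.15, all 8 samples in one fit for the calls of each cell type, and each pair left out in turn. On simulated counts of 16627 genes with 200 changed interactions, edgeR recovered 80% of those of 1 log2 unit and 97% of those of 2, with 5.85% of calls false. DESeq2 recovered 61% and 87%, with 1.99% false. These counts were drawn from a negative binomial model with the means and dispersions fitted to these data. Changes were placed only in genes of at least 1 CPM in both cell types. The simulated counts thus follow the model of the test, and the shares recovered in real pairs are not known. The precision rests on 2 pairs per cell type, and counting error was not separated from variation between pairs. Python 3.11.15, pandas 2.3.3 and matplotlib 3.10.9 were used for sequences and figures, with RefSeq tables of GRCm38.p6, and exon overlaps came from GENCODE vM21. The methods name Gencode vM15 as the annotation for counting, whereas the deposited table carries RefSeq-style symbols, so the gene models behind the counts are uncertain.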

Additional observations from a re-analysis of the deposited data

Results flagged for a closer look

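The interaction term of edgeR's quasi-likelihood test differed between the cell types for 3 genes. Ucp2 had an interaction difference of 1.09 and Ogn of 1.63, both with the higher ratio in pMb, and Lgr6 had -1.45, with the higher ratio in C2C12 cells (adjusted p = 0.0473 for each). Groups of 2 replicates were too small for a test of single outlying samples.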

How the results depend on the processing

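The interaction calls depend on the settings. Against 3 with the main settings there were 0 with RLE size factors, 0 with library size alone, 0 with at least 10 counts in every sample, 0 with copies kept, 0 with limma voom (1403, 1482, 1309, 1469 and 1359 genes at an unadjusted p under 0.05, in this order), 5 with robust edgeR (adding Lmod1 and Fhl1), 22 with DESeq2 and 242 with no filter. The cause was not tested. The adjusted p of Ucp2, Ogn and Lgr6 was under 0.05 in 7 of 13 alternatives and ranged up to 0.0805 with RLE, 0.118 with library size, 0.201 with limma voom and 1 without the replicate block, and their differences kept their sign in all 13. Without the replicate block there were 0 interaction calls and 166 genes at an unadjusted p under 0.05 (1393 with the block), the patterns held 9 opposite, 1 C2C12-only and 5 pMb-only genes, and each cell type alone had 0 calls. DESeq2 gave 476 genes at an unadjusted p under 0.05, 18 opposite and 7 C2C12-only genes, and a limit of 0.15 gave 107 opposite, 7 C2C12-only and 17 pMb-only genes. Calls in C2C12 cells numbered 254, against 86 in the fit of all 8 samples and 93 with DESeq2, and calls in pMb 524, against 179 with RLE, 216 with library size and 214 with DESeq2.

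Leaving out a pair gave 39 to 917 interaction calls, 918 to 2705 genes at an unadjusted p under 0.05, 55 to 131 opposite, 24 to 64 C2C12-only and 46 to 216 pMb-only genes. A single remaining pair then has to meet the limits and is assumed to vary like the pairs of the other cell type; the most calls (917) came without pMb replicate 1, with 334 without pMb replicate 2, 39 without C2C12 replicate 1 and 51 without C2C12 replicate 2. List medians then ranged from 0.27 to 0.40 for cholesterol synthesis and from -0.33 to -0.19 for DNA replication. They ranged from -0.17 to 0.62 for muscle contraction, 0.075 to 0.18 for smooth muscle and SRF, -0.26 to 0.29 for collagen, 0.23 to 0.92 for proteoglycans, -0.15 to 0.16 for proteases, -0.22 to 0.14 for interferon, -0.063 to -0.028 for mitosis, -0.036 to 0.038 for immediate early genes, 0.033 to 0.26 for cytokines, -0.11 to 0.033 for Notch, 0.046 to 0.15 for dynein and -0.034 to 0.055 for septins. The muscle median was 0.62 without pMb replicate 1 and -0.17 without pMb replicate 2.

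With library size alone the median of all genes was -0.054, that of mitosis -0.099, of immediate early genes -0.059 and of dynein 0.027. The proteoglycan median was 0.018 with at least 10 counts in every sample, and the immediate early median was -0.026 without the block and 0.0013 with DESeq2. Of 1282 values of the 99 named genes under the alternatives, 1064 kept sign and side of the threshold, 184 (58 genes) newly passed it, 18 (Ucp2, Ogn and Lgr6) no longer passed it, 16 (10 genes) moved and 0 called values reversed.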

Other observations

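Under 1 CPM in one cell type or both, genes gave few of the differences. Of 1469 tested genes with a mean under 1 CPM in C2C12 cells alone, 79 had an interaction p under 0.05, as had 43 of 651 genes under 1 CPM in pMb alone and 69 of 1795 under 1 CPM in both. The other 1202 genes with such a p were among the 12928 expressed in both cell types. The 2 pair ratios of a cell type correlated across all genes tested with 0.22 in C2C12 cells and 0.32 in pMb, which describes the pairs and does not treat genes as replicates.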
